A study of Mus musculus with 18 samples.

Results

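Neuron sEVs were set against the neurons that released them. Small extracellular vesicles (sEVs) are membrane-bound particles that cells shed into their medium. The comparison used 6 of the 18 libraries of the series, 3 of sEVs and 3 of cells, chosen by their labelled cell type and source. The other 12 are astrocyte and microglia libraries of the same layout, and the series was set up to compare the packaging of mRNA between these cell types. All came from primary mouse brain cultures with no genotype, treatment or time point named. Vesicle RNA, and RNA of a portion of the cells that made the vesicles, was primed at poly(A) tails and amplified with 15 cycles of PCR. Strain, age, days in culture and whether the replicates of a group were separate cultures are not given in the sources used here, so p-values measure only the spread between these libraries.

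Vesicles of this size form either at the plasma membrane or inside late endosomes, which release them when they fuse with the cell surface. An mRNA is thought to reach a vesicle from the cytosol next to the budding membrane, a route that was not tested here. mRNAs of secreted, membrane and lysosomal proteins are translated on ribosomes bound to the endoplasmic reticulum (ER), to which they are led by a hydrophobic stretch in the nascent protein. mRNAs of ribosomal proteins and translation factors are translated on free ribosomes, and transcripts of the mitochondrial genome stay inside mitochondria. In neurons, many mRNAs also travel along dendrites and axons.

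The start of the coding sequence differed in tendency between mRNAs low and high in sEVs, with many exceptions. Of 4870 coding genes called lower, 1131 had an N-terminal hydrophobic stretch, as defined below, and 2249 had no hydrophobic stretch. Of 3211 called higher, 157 had an N-terminal stretch and 2575 had none. Below are the first 99 bases of 4 mRNAs that were much lower in sEVs than in cells and of 3 that were much higher. They were picked to show this feature. Capitals mark the codons of the most hydrophobic run of 19 residues at the protein's N-terminus, where its mean Kyte-Doolittle hydropathy (a scale on which oily residues score high) was at least 1.6. The 3 mRNAs in lower case throughout hold no such run there. Sequences are those of GENCODE vM21 (GRCm38), written 5′ to 3′. Hspa5 lies on chromosome 2 (+ strand), Psap and Vip on 10 (+), Gria2 on 3 (-), Ftl1 on 7 (-), Rplp0 on 5 (+), and Rcc2 on 4 (+).
Hspa5, an ER chaperone, lower: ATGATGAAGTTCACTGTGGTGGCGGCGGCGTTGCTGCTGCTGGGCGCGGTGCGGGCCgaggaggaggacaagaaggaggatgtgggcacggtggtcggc
Psap, the precursor of lysosomal saposins, lower: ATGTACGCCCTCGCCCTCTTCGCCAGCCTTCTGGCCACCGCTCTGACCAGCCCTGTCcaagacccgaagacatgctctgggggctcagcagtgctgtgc
Vip, a neuropeptide, listed at 0 in sEVs: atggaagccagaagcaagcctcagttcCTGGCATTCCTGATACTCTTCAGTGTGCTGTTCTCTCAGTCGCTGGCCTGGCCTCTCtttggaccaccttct
Gria2, a glutamate receptor subunit, lower: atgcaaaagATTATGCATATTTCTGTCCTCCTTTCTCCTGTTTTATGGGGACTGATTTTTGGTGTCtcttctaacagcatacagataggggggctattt
Ftl1, the ferritin light chain, higher: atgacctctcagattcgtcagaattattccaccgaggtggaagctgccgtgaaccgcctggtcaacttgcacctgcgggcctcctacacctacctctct
Rplp0, a ribosomal protein, higher: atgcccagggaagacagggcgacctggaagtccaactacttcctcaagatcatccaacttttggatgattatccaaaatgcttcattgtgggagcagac
Rcc2, a chromatin-associated regulator of mitosis, higher: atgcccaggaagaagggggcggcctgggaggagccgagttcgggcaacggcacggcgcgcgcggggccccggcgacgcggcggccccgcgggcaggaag

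Neuron sEVs and neurons differed in most of their transcripts. Of 17079 genes with a normalized count of at least 10 in at least 3 of the 6 libraries, 3748 (21.9%) were called higher in sEVs and 5635 (33.0%) lower, at an adjusted p under 0.05 (limma, Benjamini-Hochberg). In all 54.9% of the genes were called. The 3 sEV libraries lay above all 3 cell libraries in 25.7% of the genes and below them in 37.3%. Log2 differences are sEVs minus cells on the scale of log2(normalized count + 1), given with the standard error (SE) of the fit, and their median over all genes was -0.45. Among called genes, 785 differed by 3 log2 units or more upward and 2375 downward. There were 592 called genes listed at 0 in all 3 sEV libraries and 41 listed at 0 in all 3 cell libraries. The balance of calls depends on scaling: quantile normalization of the 6 libraries gave 4827 higher and 4528 lower, and moved the median of all genes to 0.06, and equal totals moved it to -0.75. When all 18 libraries shared a single estimate of spread, 2176 genes were called higher and 3381 lower. Of 161 called genes named below, 34 then missed the threshold with the same log2 difference, at adjusted p from 0.0507 to 0.736, among them Gria2 (0.134), Cntn1 (0.140), App (0.0624), Homer2 (0.206), Mapt (0.346) and Sox11 (0.316).

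**Figure D1:**
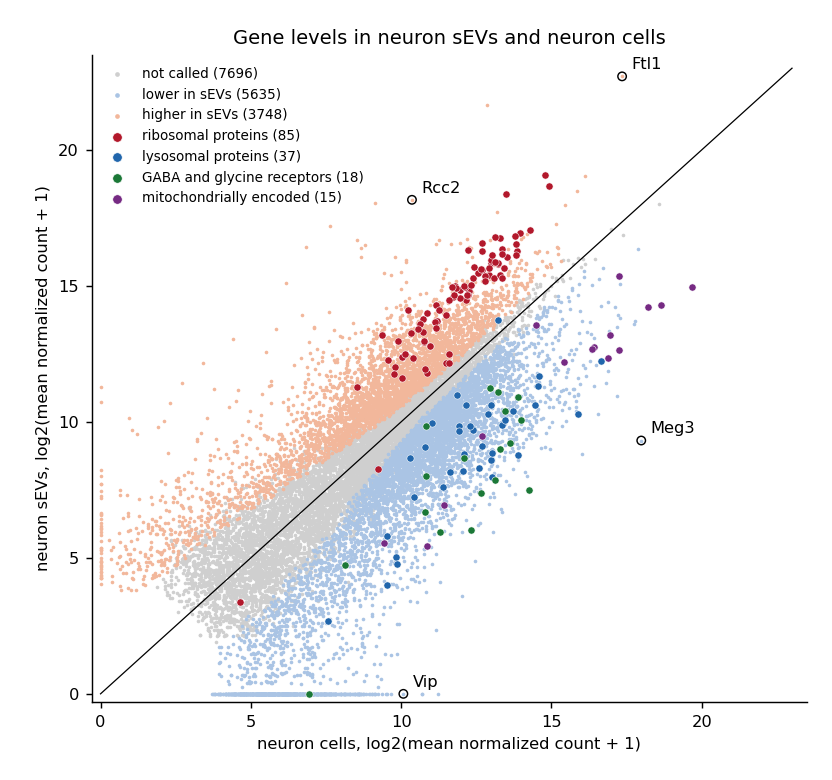
Mean normalized counts of 17079 genes in neuron cells (x axis) and neuron sEVs (y axis), each as log2(mean + 1), coloured by call, with 4 gene lists marked and 4 genes ringed. Ribosomal protein genes, except Rpl3l and Rps4l, lie above the line of equality, and lysosomal genes, except Npc2, GABA receptor genes and mitochondrially encoded genes lie below it, and 592 called genes lie on the floor at 0 in sEVs.

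The libraries held an estimated 30658292 to 53198054 reads in sEVs and 43958089 to 65623306 in cells, and sEV replicate 2 was the shallowest. Between 15157 and 15951 genes reached a value of 10 in an sEV library and between 17063 and 18131 in a cell library. All 20 neuron markers were detected, with a summed normalized count of 848980 to 867552 in cells and 214938 to 300381 in sEVs. Markers of other cells were present too. The 18 astrocyte markers summed to 356158 to 430798 in cells and 138148 to 209009 in sEVs, and 16 oligodendrocyte lineage markers to 41530 to 125227 and 26164 to 35468. Of 20 microglia and macrophage markers, 8 were at 0 in all 6 libraries, among them Tmem119, Cx3cr1, Trem2 and Ctss, and the list summed to at most 3112. In bulk libraries such as these, fewer vesicles from a cell type and less of its RNA per vesicle cannot be told apart, and the part of other cells in the results below was not tested.

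Ribosomal protein mRNAs rose with few exceptions. Of 85 tested, 82 rose in sEVs and 0 fell, with a median of 2.71, against 21.9% of all genes called higher and a median of -0.45. Rps2, a small-subunit protein, was at 631212, 536990 and 478691 normalized counts in the 3 sEV libraries and at 29735, 33219 and 22534 in cells, a difference of 4.28 ± 0.24 (SE, limma adjusted p = 6.25e-06). All sEV libraries lay far above all cell libraries. Rpsa, a small-subunit protein also known as the laminin receptor, was at 388641, 298240 and 339572 in sEVs and at 10410, 11017 and 13347 in cells. It had the largest difference of the list, 4.88 ± 0.20 (adjusted p = 2.0e-06). Rpl8 varied little within a group, from 81336 to 83438 in sEVs and from 4743 to 4865 in cells. Rplp0, the stalk protein whose coding start is printed above, rose by 3.74 ± 0.19. The 3 members not called, named after their values were seen, were the paralogues Rpl3l (-2.65), Rps4l (-1.01) and Rpl7l1 (0.55). Ribosomal protein genes together took 6.95 to 9.36% of the sEV totals and 1.15 to 1.21% of the cell totals. A two-sided exact permutation test of the 3 against 3 libraries gave p = 0.1, the smallest it can give, and 0.1 adjusted over 5 library measures. These genes have processed pseudogenes, and Rps2 shares at least 95% identity over at least 300 bases with 32 other genes, so reads can be split among copies. Processed pseudogenes themselves, 317 tested, had a median of 2.03, and 47.3% of them were called higher.

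Other mRNAs that start with a terminal oligopyrimidine tract, the element by which growth signals control translation, moved with them. Of 18 tested, 14 rose and 1 fell, with a median of 2.06, beside 21.9% and 33.0% of all genes. Eef1a1, the elongation factor that delivers tRNA to the ribosome, was at 525422, 561877 and 521696 in sEVs and at 69386, 74742 and 70737 in cells (2.90 ± 0.22, limma adjusted p = 2.63e-05). Rack1, a ribosome-bound scaffold, rose by 4.16 ± 0.15, Tpt1 by 3.71 ± 0.20 and the poly(A)-binding protein Pabpc1 by 3.04 ± 0.16. The exception, named after its values were seen, was the initiation factor subunit Eif3l, at 3974, 3214 and 3807 in sEVs and 5465, 6806 and 6346 in cells (-0.76 ± 0.17). Translation factors and their regulators as a whole were split, with 26 of 66 higher, 17 lower and a median of 0.27. At the top was Eif4ebp2, a repressor of cap-dependent initiation that is abundant in brain, at 35207 to 37417 in sEVs and 904 to 1324 in cells (5.0 ± 0.18). The cap-binding complex went the other way: Eif4e (-1.12), Eif4g1 (-2.12) and Eif4a1 (-2.12), named after their values were seen, all fell. With all libraries at the same total the list held 20 higher and 24 lower.

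Most lists of mitochondrial genes differed by the genome that encodes them. The nuclear-encoded carriers of the Slc25 family, described below, did not rise as a list, with 7 of 43 higher and 10 lower. Of 92 nuclear genes of oxidative phosphorylation, 68 rose and 9 fell, beside 21.9% and 33.0% of all genes. Their median was 1.09. Cox7a2l, which helps join respiratory complexes, was at 54141, 68829 and 59938 in sEVs and at 7181, 10323 and 9246 in cells (2.78 ± 0.19, limma adjusted p = 1.47e-05). Among those that fell were Ndufs1 of complex I, by 2.52 ± 0.22, and Sdha of complex II, by 1.73 ± 0.15. Cox4i1, the member with the highest mean, was not called (0.49 ± 0.26, adjusted p = 0.134). In the fit of all 18 libraries 4 of the list fell. Mitochondrial ribosomal proteins, also nuclear-encoded, rose in 45 of 78 and fell in 7, with Mrpl30 at 2.72 ± 0.15 and Mrpl42 at 2.52 ± 0.20. At equal totals 36 of these rose and 17 fell. A list of mitochondrial import proteins and small proteins of mitochondria rose in 16 of 33 and fell in 5. Tomm5, a small subunit of the outer-membrane pore, was at 6992, 7099 and 7017 in sEVs and at 1663, 1775 and 1641 in cells (2.06 ± 0.15), whereas Tomm40, the pore itself, fell by 2.15 ± 0.24.

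Transcripts of the mitochondrial genome were low in sEVs. Of 15 tested, 14 fell and 0 rose, with a median of -4.19, beside 33.0% and 21.9% of all genes. CYTB, cytochrome b, was at 41963, 10524 and 42893 in sEVs and at 802579, 784997 and 941393 in cells (-4.98 ± 0.52, adjusted p = 0.000113). COX1 of complex IV was at 24159, 6604 and 27144 against 306617, 245545 and 349514 (-4.19 ± 0.50). In both genes sEV replicate 2, the shallowest library by the rough estimate above, was well below the other sEV libraries. All sEV libraries lay below every cell library. Together these genes took 0.410, 0.107 and 0.434% of the sEV totals and 4.93 to 6.05% of the cell totals (two-sided exact permutation p = 0.1, the smallest possible). The 12S ribosomal RNA mt-Rnr1 was not called (-1.13 ± 0.46, limma adjusted p = 0.066), although its sEV libraries, at 4503 to 16613, lay below its cell libraries, at 19456 to 28039.

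mRNAs of the secretory pathway were low in sEVs from its entrance to its end. Among ER chaperones and folding enzymes 21 of 22 fell and 0 rose, with a median of -3.0, against 33.0% of all genes called lower. Hspa5 (BiP), the main ER chaperone, was at 2331, 2595 and 2713 in sEVs and at 74440, 93859 and 91924 in cells, a fall of 5.08 ± 0.16 on the log2 scale (adjusted p = 1.01e-06). Pdia3, which forms disulfide bonds in glycoproteins, fell by 5.31 ± 0.21 and the lectin Canx by 3.59 ± 0.20. The member not called was Ero1b (-0.33 ± 0.30). Among subunits of the translocon, signal peptidase and glycosylation complexes 17 of 22 fell, with Ddost at -3.84 ± 0.17. The 2 that rose, named after their values were seen, encode proteins of only 96 and 37 residues: Sec61b, at 1834 to 2065 in cells and 2765 to 4112 in sEVs (0.80 ± 0.20), and Ost4 (1.27 ± 0.31).

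Lysosomal hydrolases and membrane proteins fell in 35 of 37 genes and rose in 0, beside 33.0% and 21.9% of all genes. Their median was -3.56. Ctsb, the protease cathepsin B, was at 1314, 1179 and 1240 in sEVs and at 57321, 68096 and 56841 in cells (-5.60 ± 0.15, adjusted p = 4.64e-07). Psap was at 3871 to 5811 against 96380 to 109726 (-4.43 ± 0.19), and Ctsd, cathepsin D, fell by 3.23 ± 0.18. Not called were Gusb (-1.15 ± 0.43, adjusted p = 0.051) and Npc2, the soluble cholesterol carrier, whose sEV libraries, at 10587 to 18702, all lay above its cell libraries, at 9317 to 9841 (0.48 ± 0.22, adjusted p = 0.0947). The V-ATPase, the proton pump that acidifies lysosomes and synaptic vesicles, ranged widely. The membrane-bound Atp6ap2 (-5.96 ± 0.25), Atp6ap1 (-5.42 ± 0.20) and Atp6v0c (-4.41 ± 0.20) were among its lowest members, and the small cytosolic subunit Atp6v1f, named after its values were seen, rose (0.76 ± 0.21). In all 14 of 20 fell and 1 rose. Enzymes of sterol synthesis, most of them ER membrane proteins, fell in 17 of 24 and rose in 1, which is Stard4, a soluble sterol carrier named after its values were seen (0.85 ± 0.18). Dhcr7, which makes cholesterol in the last step, fell by 4.75 ± 0.20, and Hmgcs1, a cytosolic enzyme, by 2.66 ± 0.17. In the fit of all 18 libraries 10 of these 24 fell and 0 rose.

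**Figure D2:**
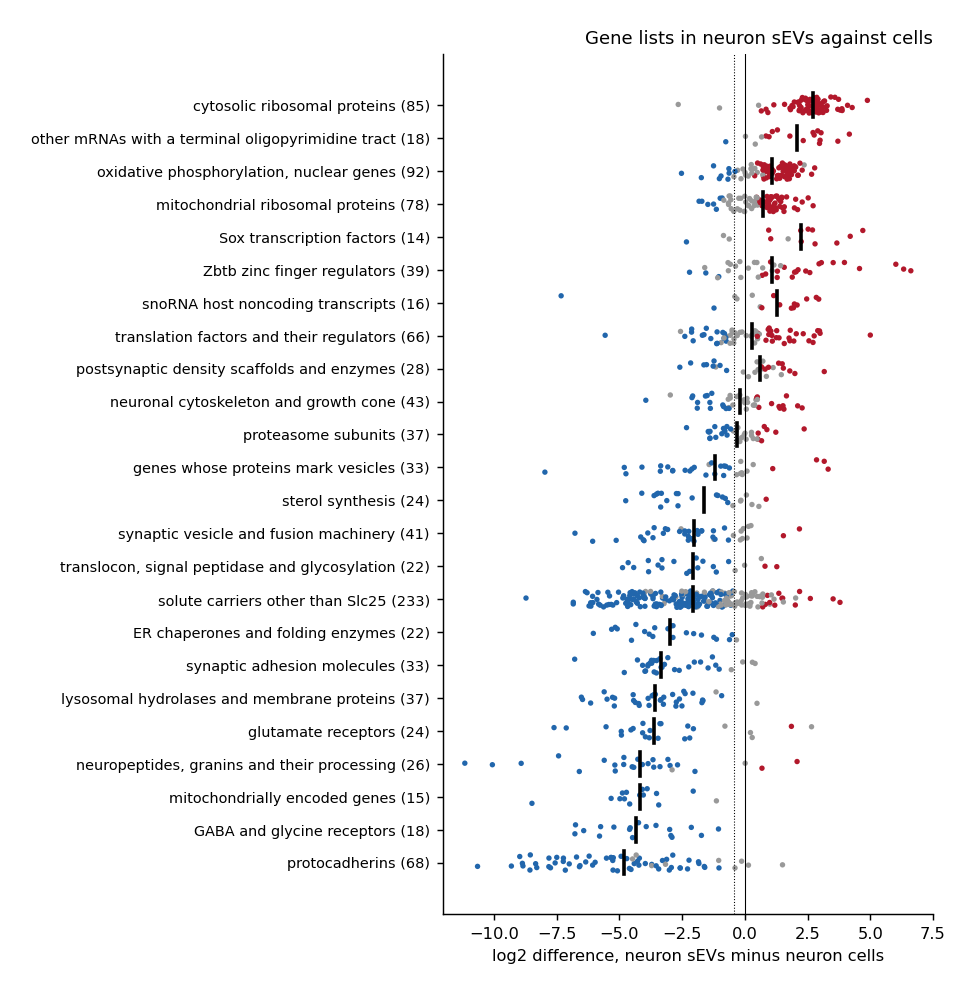
Log2 difference between neuron sEVs and neuron cells for the members of 24 gene lists, with the number tested in brackets; red points were called higher in sEVs, blue points lower and grey points not called, black bars are medians and the dotted line is the median of all genes. Ribosomal proteins sit at a median of 2.71, while protocadherins, at the bottom, have 59 of 68 members called lower.

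The receptors and adhesion molecules that equip a neuron's surface were among the lowest. All 18 GABA and glycine receptor subunits tested fell, with a median of -4.36, beside 33.0% of all genes called lower and 21.9% higher. Gabrb2, a subunit of GABA-A receptors, was at 99.7, 83.3 and 10.3 in sEVs and at 4280, 7235 and 3849 in cells (-6.75 ± 0.79, limma adjusted p = 0.000209). The groups did not come near each other. Glutamate receptors fell in 19 of 24 and rose in 1, with a median of -3.62. Gria2, the AMPA receptor subunit that blocks calcium entry, was at 2371, 2212 and 1522 against 57995, 71156 and 53512 (-4.92 ± 0.21). Gria1 fell by 4.45 ± 0.16, and the metabotropic receptor Grm7 was at 147, 84.6 and 1.73 against 5499 to 7175. The kainate receptor Grik3, named after its values were seen, rose and was at 387 to 815 in cells and 1451 to 2699 in sEVs (1.86 ± 0.35). Grin2b, an NMDA receptor subunit, had overlapping groups (0.22 ± 0.46, adjusted p = 0.698). The fit of all 18 libraries called 12 of the GABA and glycine receptors and 11 of the glutamate receptors lower.

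Synaptic adhesion molecules fell in 29 of 33 and rose in 0, beside 33.0% and 21.9% of all genes. Cntn1, a contactin anchored in the outer face of the membrane, was at 3979, 5238 and 4014 in sEVs and at 64731, 75221 and 64246 in cells (-3.96 ± 0.17, limma adjusted p = 2.47e-06), and Ncam1 fell by 3.34 ± 0.22. The fit of all 18 libraries called 10 lower. Protocadherins, whose combinations tell a neuron's own branches from others, fell in 59 of 68 with a median of -4.82, or in 29 when genes had to be above 0 in all 6 libraries. Pcdha1 was at 1166 to 2061 in cells and listed at 0 in all sEV libraries, and Pcdha5 was at 2.25, 45.7 and 38.1 in sEVs against 5321 to 5904. The clustered genes share their last exons, so their reads cannot be assigned with certainty to 1 member, but Pcdh9, which lies outside the clusters, fell by 2.58 ± 0.18. Neurons read guidance cues through receptors of the ephrin, semaphorin, slit and netrin systems. These ligands and receptors fell in 44 of 65, with Robo2, the slit receptor, at 340 to 686 in sEVs and 7021 to 9541 in cells (-4.06 ± 0.28). The 3 that rose, named after their values were seen, were Plxnb1 (1.17 ± 0.40), Sema6c (1.92 ± 0.59) and Ntn3 (2.23 ± 0.71). The fit of all 18 libraries called 25 lower and 1 higher.

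Among voltage-gated ion channels 38 of 74 fell and 8 rose, and the sodium channel Scn2a stood at -3.27 ± 0.16. Cacng4, an auxiliary subunit of AMPA receptors, varied from 14416 to 15772 in sEVs and from 2898 to 3012 in cells (2.34 ± 0.14). Solute carriers other than those of mitochondria fell in 147 of 233 and rose in 13, and the glutamate transporter Slc1a1 stood at -4.86 ± 0.20. Mitochondrial carriers of the Slc25 family fell in 10 of 43 and rose in 7, shares below the 33.0% and 21.9% of all genes, with a median of -0.32 that turned positive under quantile normalization, where 11 fell and 11 rose. In the fit of all 18 libraries 18 of these channels fell and 4 rose, 74 of these solute carriers fell and 3 rose, and 5 of the mitochondrial carriers fell and 3 rose.

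Neuropeptides, granins and their processing enzymes fell in 22 of 26, beside 33.0% of all genes called lower and 21.9% higher. The convertase Pcsk1 was at 1763, 3490 and 1935 in cells and Vip at 888, 1221 and 1118, and both were listed at 0 in the 3 sEV libraries. Scg5, a convertase chaperone, fell by 4.08 ± 0.23, and carboxypeptidase Cpe was at 5161 to 8706 in sEVs and 30022 to 73616 in cells (-3.06 ± 0.36). The 2 that rose, named after their values were seen, were Cck, at 3625 to 5427 in cells and 5613 to 7553 in sEVs (0.68 ± 0.21, limma adjusted p = 0.0241), and Pomc, at a mean of 69.4 in cells and 302 in sEVs (2.08 ± 0.57). Genes of the synaptic vesicle and its fusion machinery fell in 29 of 41 and rose in 2. Synpr and Syp, membrane proteins of the vesicle, fell by 6.77 ± 0.37 and 4.05 ± 0.20. Named after their values were seen, the 2 that rose were Bsn (2.18 ± 0.27) and Dnajc5 (1.54 ± 0.23). Bsn is the active-zone scaffold bassoon, and Dnajc5 a chaperone tethered to the vesicle surface. In that list 10 fell and 1 rose in the fit of all 18 libraries.

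Scaffolds and enzymes on the inner face of the postsynaptic membrane were split. Of 28, 9 rose and 8 fell, beside 21.9% and 33.0% of all genes. Their median was 0.59 and that of the glutamate receptors -3.62, a difference between lists that was not tested. Homer2, which links metabotropic receptors to calcium stores, was at 17832, 25959 and 16164 in sEVs and at 2439, 1870 and 2272 in cells (3.16 ± 0.21, limma adjusted p = 1.43e-05). Dlg4 (PSD-95) was at 2536, 3383 and 2621 against 1190, 1023 and 1120 (1.35 ± 0.20). Camk2a, the kinase whose mRNA is carried into dendrites, fell by 2.59 ± 0.20. With all 18 libraries in the fit 2 rose and 0 fell. The mRNAs known to localize to dendrites were split too, with 9 of 30 higher and 14 lower, beside the same 21.9% and 33.0%. With all 18 libraries the counts were 4 and 5. Arc, an immediate early gene whose protein forms virus-like capsids, was at 188, 197 and 303 in sEVs and at 212, 281 and 234 in cells (-0.10 ± 0.43, adjusted p = 0.851). Of 19 capsid-derived genes 2 rose and 7 fell, the falls near the 33.0% of all genes. Peg10 was at 2052, 1954 and 2539 against 93.4, 67.8 and 161 (4.41 ± 0.39), and Rtl6 rose by 3.41 ± 0.25. Without cell replicate 1, 4 members of that list fell, and with all 18 libraries 3.

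Cytoskeletal genes were called in shares near those of all genes, 21.9% higher and 33.0% lower. Of 43 tested, 11 were higher and 14 lower, with a median of -0.20. Mapt, the axonal microtubule protein tau, was at 81549, 109078 and 50318 in sEVs and at 24557, 27307 and 21214 in cells (1.66 ± 0.29, limma adjusted p = 0.00154). The dendritic Map2 fell by 1.37 ± 0.18 and Map1b by 1.57 ± 0.24. Tuba1a, the member with the highest mean, was at 234422 to 307163 against 386483 to 401851 and was not called (-0.59 ± 0.27, adjusted p = 0.0995). With all 18 libraries in the fit 7 rose and 4 fell. Genes linked to neurodegeneration spread over the whole range, with 15 of 27 lower and 4 higher. App, the amyloid precursor, was at 1167, 1634 and 1307 against 39531, 40322 and 44307 (-4.93 ± 0.17, adjusted p = 1.39e-06), and its relative Aplp2 fell by 5.08 ± 0.16. The 4 that rose were Mapt, Sod1 (1.47 ± 0.18) and, named after their values were seen, Pink1 (2.59 ± 0.22) and Atxn1 (1.72 ± 0.23). In the fit of all 18 libraries 9 fell and 2 rose.

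**Figure D3:**
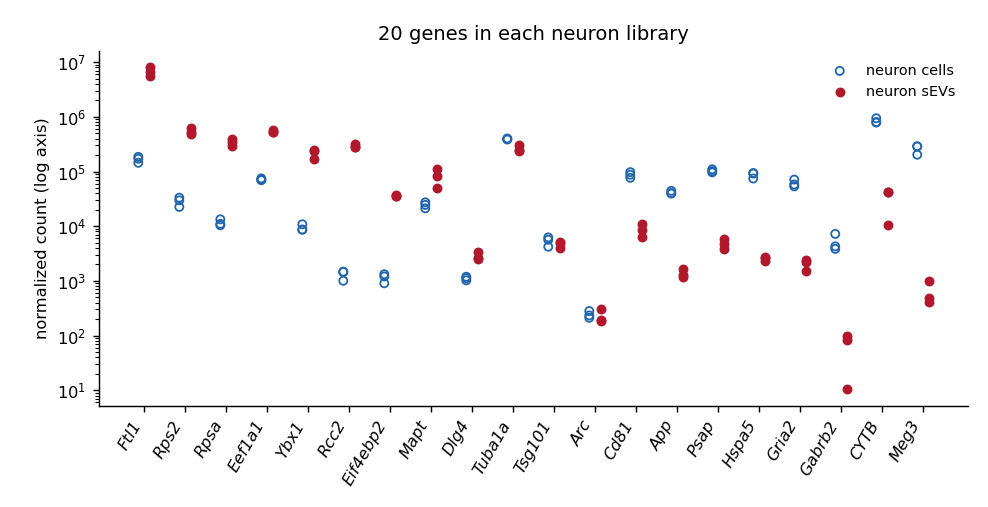
Normalized counts (log axis) of 20 genes in each of the 3 neuron cell libraries (open circles) and the 3 neuron sEV libraries (filled circles). Ftl1 and the next 8 genes lie higher in sEVs, Tuba1a lies somewhat lower without being called, Tsg101 and Arc overlap between the groups, and the 8 genes from Cd81 to Meg3 lie lower in every sEV library.

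Genes whose proteins are used to identify sEVs were mostly low as mRNA. Of 33 such genes 21 fell and 4 rose. The tetraspanin Cd81 was at 6469, 11186 and 8456 in sEVs and at 87323, 76809 and 97357 in cells (-3.35 ± 0.23, limma adjusted p = 1.38e-05), and Cd63 (-3.37 ± 0.25) and Cd9 (-4.74 ± 0.42) fell too. Of the ESCRT machinery that cuts vesicles free, Tsg101 (-0.17 ± 0.20) and Pdcd6ip (-0.16 ± 0.26) had overlapping groups. Vps37b, an ESCRT-I subunit, was at 3580 to 4568 in sEVs and 374 to 444 in cells (3.32 ± 0.20). The other 3 that rose were Gapdh (1.11 ± 0.20) and, named after their values were seen, Chmp4b (3.16 ± 0.37) and Rab35 (2.86 ± 0.26). RNA-binding proteins proposed to sort RNA into vesicles were split, with 7 of 25 higher and 10 lower, beside 21.9% and 33.0% of all genes. Ybx1 was at 245769, 233249 and 170129 against 10837, 8649 and 8650 (4.52 ± 0.21, adjusted p = 2.88e-06), and Ago2, the microRNA effector, rose by 3.36 ± 0.15. Hnrnpk fell by 2.22 ± 0.16.

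Large cytosolic and nuclear protein complexes were split among their subunits. Of 37 proteasome subunits 15 fell and 7 rose, beside 33.0% and 21.9% of all genes. All 7 that rose belong to the barrel-shaped core, led by Psmb10, a catalytic subunit, at 8118, 9356 and 8502 in sEVs and 1300, 2055 and 1771 in cells (2.36 ± 0.20, limma adjusted p = 4.2e-05). The falls included the regulatory cap, with Psmd3 at -2.32 ± 0.37, named after its values were seen. At equal totals 4 rose. Spliceosome components fell in 19 of 42 and rose in 10. Of the latter, read after their values were seen, 8 are small Sm, Lsm or SF3B proteins and the others the splicing factors Srsf3 and Srsf9. Cytosolic chaperones fell in 13 of 24, among them Hspa8, the constitutive Hsp70, at 31918 to 35755 in sEVs and 140113 to 177086 in cells (-2.19 ± 0.19), and rose in 3, Cryab, Cct2 and Cct3. Antioxidant enzymes leaned the other way, with 10 of 18 higher and 2 lower. Txn2, the mitochondrial thioredoxin, rose by 2.15 ± 0.18, and Gpx1, a glutathione peroxidase, was at 13694 to 18790 against 5107 to 6308 (1.52 ± 0.18). Glycolytic enzymes fell in 8 of 16, with the phosphofructokinase Pfkp at -3.55 ± 0.19, and rose in 3, Gapdh, Aldoc and Hk2.

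Immediate early genes, which neurons switch on with activity, rose in 5 of 22 and fell in 7, near the 21.9% and 33.0% of all genes. The 5 became 3 without cell replicate 1, without sEV replicate 3, at equal totals and under the replicate block, and with all 18 libraries in the fit 3 rose and 4 fell. Junb was at 13.1, 22.6 and 2.82 in sEVs and at 489, 518 and 369 in cells (-5.39 ± 0.82, limma adjusted p = 0.000797), while Btg2, an antiproliferative factor, was at 6457 to 8704 against 1167 to 1837 (2.28 ± 0.22). The median of this list, -0.16, turned positive under quantile normalization and without sEV replicate 1.

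Nuclear and imprinted noncoding RNAs were mostly low. Meg3, an imprinted transcript of neurons, was at 1008, 415 and 481 in sEVs and at 286354, 202861 and 289306 in cells (-8.77 ± 0.33, adjusted p = 1.53e-06). This was the largest decrease of the genes ranked under the naming rule. Malat1 was at 8578 to 17142 against 185574 to 274366 (-4.11 ± 0.29). In this list 11 of 15 fell and 2 rose, Lockd (3.94 ± 0.38) and Pantr1 (2.29 ± 0.16). Over all genes 33.0% fell and 21.9% rose. Neat1 was not called (-1.14 ± 0.48, adjusted p = 0.0769), though its sEV libraries, at 110 to 233, lay below its cell libraries, at 265 to 502. Host transcripts of small nucleolar RNAs, which are spliced, exported and then degraded as they are translated, rose in 10 of 16. Gas5 was at 15115 to 19152 against 3756 to 4410 (2.08 ± 0.16), and the neuronal Snhg11 fell by 7.32 ± 0.35. With all 18 libraries in the fit 7 of the nuclear list fell and 5 of the host transcripts rose.

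Of the 12 largest increases named by the rule, 5 are given first, and these were at 70.5 to 1478 in cells. Rcc2 was at 321434, 280455 and 277602 in sEVs and at 1006, 1453 and 1478 in cells (7.82 ± 0.19, adjusted p = 3.63e-07). Zfp660, a zinc finger protein, was at 12386 to 18214 against 81.3 to 139 (7.22 ± 0.27), the motor protein Kif1c at 9407 to 14332 against 70.5 to 213 (6.48 ± 0.39), and the transcription factor Bach1 at 7109 to 8853 against 75.6 to 192 (6.14 ± 0.36). Rdh10, which makes retinaldehyde for retinoic acid, was at 34153, 53087 and 49873 against 874, 449 and 731 (6.09 ± 0.28). None of these 5 shares near-identical sequence with another annotated gene, but Zfp660 overlaps a gene on the opposite strand, and the library kit does not mark strand. The other 7 of the 12 largest increases were Taf10, Zbtb39, Gprin2, Unc119b, Plekho2, Zfp516 and Acvr2b, at 5.94 to 6.39, of which Taf10 overlaps Ilk and Zbtb39 overlaps Gpr182, both on the opposite strand, and Unc119b shares near-identical sequence with 1 other gene. Predicted and clone-named genes reached higher values, among them 5031425E22Rik at 235813 to 286179 against 448 to 738 (8.93 ± 0.21) and Gm42047 at 2954073 to 3847661 against 4538 to 9001 (8.87 ± 0.31), which shares near-identical sequence with 6 other genes. Ftl1 took the largest share of the sEV totals, which are not corrected for transcript length, at 5575237, 8197079 and 6664127 against 144290, 171012 and 185264 (5.34 ± 0.41), or 10.5 to 15.2% of the sEV totals and 0.346 to 0.435% of the cell totals. It shares near-identical sequence with 7 other genes. Fth1, its partner in the iron store, rose by 2.65 ± 0.22, and Tfrc, the transferrin receptor that takes iron up, fell by 3.58 ± 0.25.

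The 12 largest decreases named by the rule include, besides Meg3, Snhg11, Pcdha5 and Synpr described above, the receptor or channel genes Gabrb2, Grm7, Sstr1, Gpr6 and Kcnt2. Sstr1, a somatostatin receptor, was at 7.37 to 11.7 in sEVs and at 1322, 1343 and 1102 in cells (-6.89 ± 0.54), and Gpr6, an orphan receptor, at 152, 12.3 and 10.4 against 2365 to 3870 (-6.75 ± 0.94). Dock4, an activator of Rac, was at 0.511, 28.3 and 23.3 against 916 to 2776. Genes listed at 0 in all sEV libraries included, besides Vip, Pcsk1 and Pcdha1, the membrane proteins Tmem215 at 257 to 825 in cells, Smim43 at 354 to 915 and Igsf1 at 238 to 610. Those listed at 0 in all cell libraries were low in sEVs. The noncoding D6Ertd527e and Lncenc1 were at 88.1 to 362 and at 107 to 204, and Fgd2, a guanine nucleotide exchange factor, was at 25.9 to 57.2.

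Families of transcription factors differed, in lists chosen after their values were seen. Of 14 Sox factors 10 rose and 1 fell. The Zbtb zinc finger regulators held 20 increases and 3 decreases among 39 genes, the forkhead factors 11 and 2 among 18, and all 3 Sall genes rose. The large family of Zfp zinc finger proteins held 91 increases and 61 decreases among 369 genes, with a median of 0.03. Its decreases numbered 37, 40 and 38 without cell replicate 1, 2 or 3, and quantile normalization gave 123 increases and 32 decreases. The list of regulators of transcription and splicing in neurons was written earlier, though also with earlier results of these data known. Of its 36 genes 10 rose and 14 fell. Beside these stand 21.9% and 33.0% of all genes, and the median of the list was -0.30. Sox11, which drives early neuronal differentiation, was at 122715, 148058 and 99107 in sEVs and at 18434, 20182 and 17792 in cells (2.70 ± 0.20, limma adjusted p = 2.1e-05). Sall3 was at 9703, 13100 and 15199 against 341, 382 and 288 (5.21 ± 0.22). Neural progenitor markers rose in 6 of 12 and fell in 1, with the filament gene Nes at 8757, 6981 and 12534 against 1866, 788 and 1257 (2.90 ± 0.34) and Sox2 at 575 to 625 against 120 to 130 (2.23 ± 0.37). Their summed level was 44702 to 65522 in sEVs and 23110 to 25895 in cells, the opposite direction to the neuron markers, of which 13 of 20 fell and 1, Mapt, rose. Of the astrocyte markers 9 of 18 fell and 3 rose, Aldoc (1.45 ± 0.17), Sox9 (2.25 ± 0.26) and, named after its values were seen, Gfap (0.96 ± 0.21), while the secreted Sparcl1 fell by 4.53 ± 0.24. Of 16 oligodendrocyte lineage markers 8 fell, and 3 rose, among them the transcription factor Olig2 at 3359 to 4149 against 752 to 1336 (1.84 ± 0.25). Markers of inhibitory neurons fell in 10 of 12 and rose in 0, with Gad1, which makes GABA, at -3.65 ± 0.27. Of 10 excitatory markers 4 fell, among them the vesicular transporter Slc17a7 (-4.02 ± 0.43), and 2 rose. Of the microglia markers 6 were tested, and Mpeg1, a pore-forming protein of macrophages, was at 877, 385 and 138 in sEVs and at 0, 0 and 11.1 in cells. With all 18 libraries in the fit 5 Sox, 6 Zbtb, 7 forkhead, 35 Zfp and all 3 Sall genes rose, 14 Zfp genes fell, 3 of the neuronal regulators rose and 7 fell, and 2 progenitor markers rose while 3 neuron markers and 6 inhibitory markers fell.

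The features of the encoded protein were compared over all 14250 protein-coding genes tested with a coding sequence in GENCODE vM21. The 1928 genes whose protein has an N-terminal hydrophobic stretch, as in the 4 upper sequences above, had a median of -1.95, with 8.14% called higher and 58.7% lower. The 3178 genes with such a stretch only further on, as in many membrane proteins, had a median of -1.09, with 15.1% higher and 46.9% lower. The 9144 genes without one had a median of -0.02, with 28.2% higher and 24.6% lower. Against the mean of the cells, the N-terminal class had a median of -1.92, -1.71 and -1.91 in the 3 sEV libraries and the class without a stretch 0.03, 0.08 and 0.02, so the libraries gave the same order with little spread. The 3 classes kept that order in each of 5 bins of protein length. In proteins of 25 to 247 residues their medians were -1.40, -0.26 and 0.55, and in those of 389 to 547 residues -2.17, -1.46 and -0.33. The threshold of 1.6 is not a sharp one: Psap passed it at 1.63, while the best N-terminal windows of App and Ctsb, both with signal peptides, reached 1.59 and 1.25. Such proteins are counted in the other classes.

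Small mitochondrial inner-membrane proteins were among the exceptions, which were picked after their values were seen. Ndufa4 (0.89), Ndufa1 (1.77) and Cox6c (1.01), subunits of the respiratory chain with 82, 70 and 76 residues, have a hydrophobic N-terminal stretch and rose, and Romo1, with 79 residues, rose by 2.29 on the log2 scale. Their proteins go to mitochondria, and whether this bears on their levels in sEVs was not tested. Rdh10, a membrane enzyme, was also in the N-terminal class and rose. Among proteins in that class, those called higher had a median of 350 residues and those called lower 445.

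The number of exons also ordered the genes, within the class without a hydrophobic stretch. Transcripts of 3 exons had a median of 0.60 with 41.4% called higher, those of 7 to 9 exons 0.03 with 29.0%, and those of 15 or more -0.54 with 19.8%. Single-exon transcripts stood at 0.39. Among the longest transcripts, of 4356 bases or more, those with 1 to 4 exons had a median of 1.37, with 59.1% called higher, and those with 10 or more exons 0.06. In transcripts of 1830 to 2884 bases the medians were 0.13 and -0.88. Sox11, a single-exon gene, and Zbtb39 and Sall3, with 2 and 4 exons, belong to the long transcripts with few exons, but Rcc2 has 15 exons and Kif1c 23. Transcripts annotated as unspliced clones awaiting experimental proof (TEC), 691 tested, had a median of -4.09, and sense-intronic transcripts, 65 tested, of -4.03. RNA was treated with DNase on the column, per the labels' protocols, and the part of genomic DNA in these values was not tested.

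**Figure D4:**
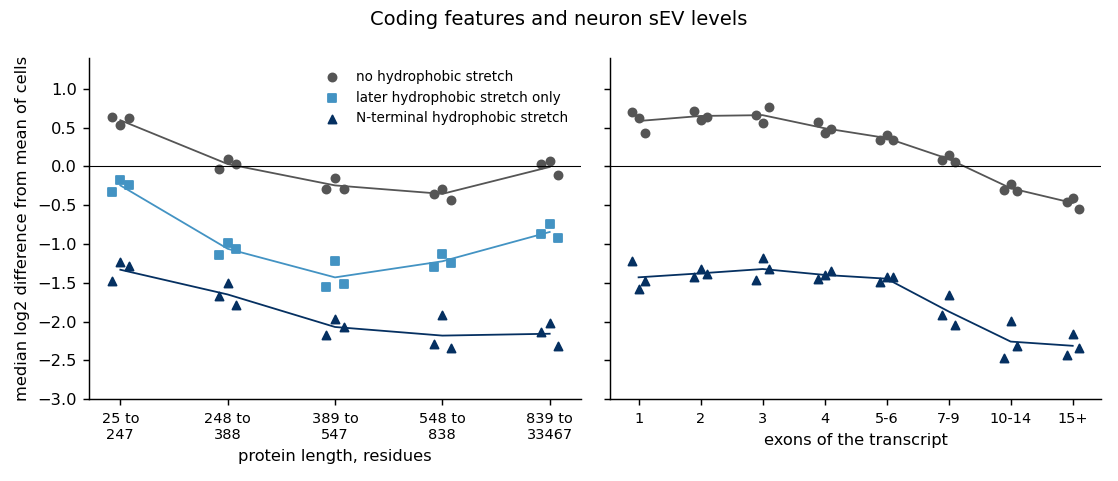
Median log2 difference of each neuron sEV library from the mean of the cells (y axis), by protein length in residues (left) and by number of exons (right), for genes whose protein has an N-terminal hydrophobic stretch (triangles), only a later one (squares) or none (circles); each point is 1 sEV library and lines join their means. The N-terminal class lies lowest in every bin, and medians fall beyond 6 exons in both classes shown on the right.

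The neuron effect was then tested against the mean of the astrocyte and microglia effects, in a fit of all 18 libraries over 19612 genes. It was higher in neurons for 1567 genes (7.99%) and lower for 1076 (5.49%), with a median difference of 0.62. This balance turned over with scaling: equal totals gave 1102 higher and 1449 lower with a median of 0.30, and quantile normalization 1385 higher and 1630 lower with a median of 0.09. Of the ribosomal proteins 74 of 85 had a larger effect in neurons and 0 a smaller one. Their median was 2.71 in neurons, 1.26 in astrocytes and 1.05 in microglia, and between 55 and 77 of them were called higher, and 0 lower, under each of 10 alternatives. Other oligopyrimidine-tract mRNAs were called higher in neurons in 11 of 18, and in 7 at equal totals. The nuclear oxidative phosphorylation genes were higher in 31 of 92 and lower in 3, but at equal totals in only 4, with 4 lower, without neuron sEV replicate 1 or 3 in 14 and 13, without neuron cell replicate 1 in 17, and without neuron sEV replicate 2 in 48. V-ATPase subunits went the other way, lower in neurons in 10 of 20 and higher in 0, with medians of -1.14, -0.97 and -0.48 in neurons, astrocytes and microglia. Cytosolic chaperones (8 of 24 lower, 0 higher) and proteasome subunits (12 of 37 lower, 1 higher) did likewise, but without neuron cell replicate 2 only 6 of the proteasome subunits were called lower. For lysosomal genes 3 were called higher and 2 lower of 37, with medians of -3.56, -4.32 and -3.40, and for the mitochondrially encoded genes 0 of 15 were called in either direction, with medians of -4.19, -4.32 and -3.61. A p that misses the threshold does not show that these effects are equal.

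**Figure D5:**
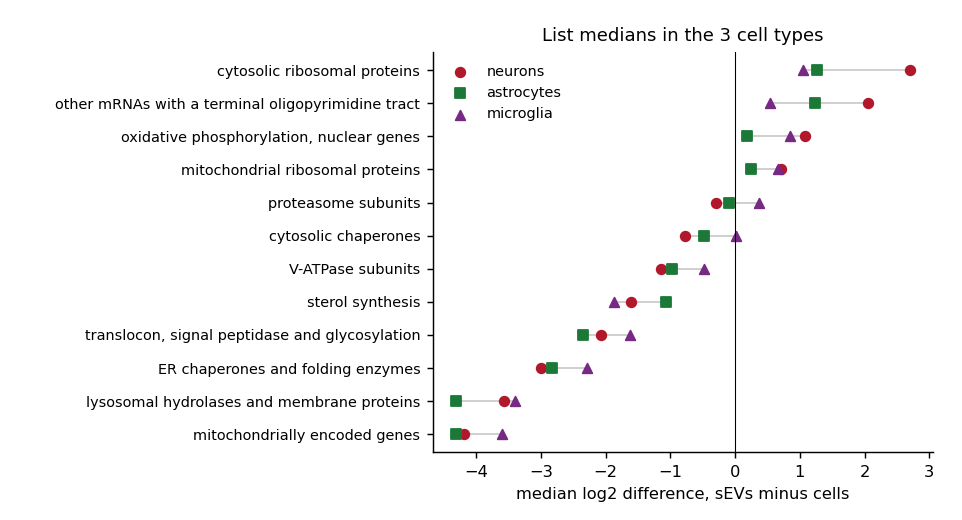
Median log2 difference between sEVs and cells (x axis) for 12 gene lists in neurons (circles), astrocytes (squares) and microglia (triangles). The neuron median of the ribosomal proteins, 2.71, lies above those of the other types, at 1.26 and 1.05, and the lysosomal and mitochondrially encoded lists are low in all 3 types.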

How the data were processed

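Poly(A) RNA of 3 neuron sEV and 3 neuron cell libraries was compared, with 12 glial libraries used where named. The deposited values are signal in the form of normalized counts per gene, made by the authors with Salmon 1.8.0, DESeq2 and genome build GRCm39, per the submitters' processing notes. Quantification and size factors set how reads are split between similar genes and the level of all differences. Whole reads could not be recovered, so no count model was run. Values were tested as log2(value + 1) with limma 3.58.1 (R 4.3.3, trend, Benjamini-Hochberg, adjusted p under 0.05), for genes at 10 or more in at least 3 of 6 libraries, and as an interaction over all 18. Symbols came from the table for 32514 of 54307 genes and from a name table for 19622. Features came from GENCODE vM21 (GRCm38), matched for 99.8% of tested genes, and near-identical sequence from blastn 2.17.0. No coordinates are given, since the builds differ. Fits were tested on simulated data.

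The gene lists were chosen with earlier results of these data known. Named genes were the 12 largest changes each way, 8 listed at 0 in a group each way, the 15 and 10 highest in sEVs and cells, 5 members of smallest p and the highest member of each list, 6 differences from the other cell types each way, and a fixed set. Predicted, clone-named and pseudogene symbols were passed over in ranking, 23 among the increases. Genes outside these rules, such as members that went against their list or were not called, were named after their values were seen. Alternatives changed the pseudocount, filter, scaling, replicate block, weights, trend, libraries and hydropathy threshold. Some items that these rules name are not reported here.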

Additional observations from a re-analysis of the deposited data

Results flagged for a closer look

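The sEV effect of neurons differed from the mean of the astrocyte and microglia effects, by an interaction test over 18 libraries (limma, adjusted p under 0.05), in 1567 genes with a higher and 1076 with a lower effect in neurons. At equal totals the counts were 1102 higher and 1449 lower, and under quantile normalization 1385 and 1630, so which direction holds more genes depends on scaling. The 6 largest named differences each way, in log2 units with pseudocount 1, are given here as values. Many of these genes are listed at 0 in whole groups, so the differences depend on the pseudocount and are no bounds.

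Of the 6 genes with a lower effect in neurons, 5 were absent or nearly absent from glia. Vip, a neuropeptide (-10.06), and Npy2r, a neuropeptide Y receptor (-8.60), were listed at 0 in all 12 glial libraries, so their values restate the fall within neurons and do not compare the cell types. The same holds in large part for Tmem215 (-8.51), Smim43 (-8.34) and Pcdha1 (-9.25), for which no glial sEV library was above 0, and glial cell libraries reached at most 0.574, 22.7 and 32.2. Oxtr, the oxytocin receptor (-10.47, adjusted p = 0.0288), was at 263 to 1590 in neuron cells and 0, 44.6 and 0 in their sEVs, with 3 of 6 glial sEV libraries above 0, at 41.4, 307 and 338.

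The higher effects in neurons were in genes that rose in neuron sEVs and were lower in sEVs than in cells on average in both glial types. Oas1c, of a family of antiviral oligoadenylate synthetases (10.05, adjusted p = 0.00089), was at 66.6 to 111 in neuron sEVs and at 0 in all 6 glial sEV libraries, against 103 to 304 in microglial cells. In astrocyte cells Oas1c was at 9.90, 0 and 61.4. Tmem82 (8.06) was also at 0 in all glial sEV libraries. Its glial cell libraries were at 9.16, 0 and 11.5 in astrocytes and at 49.2, 0 and 65.4 in microglia. Gpt, alanine aminotransferase (8.01), was at 418 to 622 in neuron sEVs and 51.6 to 75.1 in neuron cells, and at 0 in all 3 microglial sEV libraries and 1 astrocyte sEV library. Its other astrocyte sEV libraries, at 249 and 316, lay within the 236 to 367 of astrocyte cells. Col27a1, a fibrillar collagen (8.44), Tmco4 (8.28) and Ppp1r3b, a glycogen-targeting phosphatase subunit (7.92), followed. Ppp1r3b was at 13.3, 7.01 and 0 in astrocyte cells and at 65.2 to 155 in microglial cells. The astrocyte falls of Oas1c, Tmem82 and Ppp1r3b thus start from cell libraries at or near 0. For Col27a1 and Tmco4, single glial sEV libraries stood above all cell libraries of their type. Col27a1 was at 503 in microglial sEV replicate 1, against 178 to 367 in microglial cells. Tmco4 was at 494 in microglial sEV replicate 2 against 196 to 403, and at 166 in astrocyte sEV replicate 3 against 80.8 to 103. Called in neurons alone, Ppp1r3b lost its call under 10 of the 19 alternatives, Oas1c under 4, and Gpt (adjusted p = 0.145) and Tmco4 (0.134) under 1, the fit of all 18 libraries.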

How the results depend on the processing

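Under 19 alternatives the counts of calls between neuron sEVs and cells stayed within 1.5 times of 3748 higher and 5635 lower, except with all 18 libraries in the fit (2176 and 3381; the cause was not tested). Leaving out each library in turn gave 3210 to 3457 higher and 4397 to 5546 lower. Labels share replicate numbers between groups, but same-numbered libraries deviated together weakly (correlations of 0.008, 0.051 and 0.052). Differently numbered libraries had correlations of -0.059 to 0.013. The labels do not say that a number marks a shared culture, so the numbers were not taken as pairs. The replicate block gave 3658 higher and 5668 lower, and its interaction counts were 1051 and 788, with 18 of the oxidative phosphorylation genes higher in neurons in place of 31 and 7 of the proteasome subunits lower in place of 12. The interaction gave 1630 lower under quantile normalization, and 1255 to 1292 higher and 870 to 1014 lower without single neuron libraries.

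Under quantile normalization the medians of the N-terminal, later and no-stretch classes were -1.46, -0.68 and 0.33. With a hydropathy of at least 1.8 the later and no-stretch classes had -1.49 and -0.086, and in genes with a mean of at least 100 they had -1.0 and 0.060. Without single libraries the ranges were -2.07 to -1.85, -1.17 to -1.04 and -0.060 to 0.010. The differences in library shares ranged from -5.52 to -4.96 points for mitochondrially encoded genes, 6.45 to 7.65 for ribosomal proteins, 11.4 to 13.7 for Ftl1 and 16.8 to 17.9 for the 10 highest genes, and -2296 to -1762 for genes at 10 or more.

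List medians changed sign for translation factors at equal totals (-0.032), mitochondrial carriers under quantile normalization (0.088), and immediate early genes under quantile normalization (0.33) and without sEV replicate 1 (0.14, with a range of -0.57 to 0.14 over single libraries left out). The median of the mRNAs localized to dendrites, 0.02, was -0.28 at equal totals and -0.13 to 0.09 without single libraries, and that of the 6 microglia markers, 0.09, and of the Zfp proteins, 0.03, also changed sign in some. Of 175 named genes, 49 changed their call or sign in at least 1 alternative. Besides the 34 lost with all 18 libraries, calls of Cck, Plxnb1, Ntn3, Sema6c, Pomc, Atp6v1f, Sec61b, Cct2, Cct3 and Srsf3 were lost in some, and Gusb, mt-Rnr1, Rpl7l1, Rps4l, Rpl3l, Cox4i1, Npc2, Neat1 and Tuba1a gained one. The uncalled Arc, Grin2b and Pdcd6ip changed sign in some. Depth, roughly estimated at 30658292 to 53198054 reads per sEV library, limits what can be said of genes listed near 0.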
